A study of Mus musculus with 12 samples.

Results

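The AP-1 family encodes basic leucine zipper (bZIP) transcription factors, and accessible chromatin was described around 10 of its genes: the JUN genes Jun, Junb and Jund, the FOS genes Fos, Fosb, Fosl1 and Fosl2, and the dimer partners Batf, Batf3 and Atf3. The genes, 10 of 21755 protein-coding genes, were taken by name and role, with earlier results of these data known. A DNase I hypersensitive site (DHS) is a short stretch of chromatin that the endonuclease DNase I cuts readily. Every DHS within 50 kb either side of the 10 gene bodies was taken, which gave 309 of the 170207 DHSs of the series, with 22 at a member's own promoter (peak midpoint within 1 kb of the gene 5′ end), 55 at the promoter of another coding gene and 232 distal. The windows of Batf3 and Atf3 overlap and share 8 DHSs, which were counted once.

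DNase-seq was performed on 12 libraries of haematopoietic cells of C57BL/6J mice, whose age is not given in the sources used here. LSK cells (3 libraries) are freshly sorted lineage-negative SCA1+ KIT+ marrow progenitors. DN1 (2; KIT++ CD44+ CD25-), DN2a (2; KIT++ CD44+ CD25+) and DN2b (2; KIT+ CD44lo CD25+) cells are consecutive stages of early T cell precursors, and were sorted from cultures of LSK cells on immobilized Notch ligand Delta1 with SCF, FLT-3 ligand, IL-6 and IL-11. IgG cells (3) are LSK cells grown in the same factors on human IgG1 with no ligand. IL-7 was added to the cultures that gave DN2a and DN2b but not to those that gave DN1, so stage and IL-7 cannot be told apart there. DN cells of different stages were taken from the same LSK isolates, and the labels do not say which libraries share one, so the tests treat the libraries as independent. In such bulk samples, fewer cells with an open DHS and weaker accessibility per cell cannot be told apart.

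AP-1 proteins bind DNA as dimers: JUN proteins pair with themselves or with FOS proteins, which cannot form stable dimers among themselves, and the pair recognises the TPA response element. Fos, Fosb, Junb and Atf3 are classic immediate early genes, induced within minutes of a signal through factors already bound at their promoters, such as the serum response factor. BATF and BATF3 pair with JUN proteins, lack a transactivation domain of the FOS kind, and act with IRF factors in lymphocytes and dendritic cells. AP-1 takes part in T cell receptor signalling and also in myeloid differentiation.

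The deposited files list peaks of 150 bp with a score of unstated meaning, so each peak is given as its score percentile within its library, where 100 is the top of the list and 0 means no peak. Sequencing depth is unknown. The lists held 32952 (IgG replicate 2) to 111582 peaks (DN2b replicate 2) on autosomes and X, a 3.39-fold range, with the 3 IgG lists the shortest, so a missing IgG peak is weaker evidence of closed chromatin than a missing peak in DN2b; values from lists cut to 32952 peaks each were therefore also read and are given for a number of the results. Groups were compared by eta squared, the share of a DHS's variance in percentile that lies between the 5 groups, with an exact permutation test and Benjamini-Hochberg adjustment over all 114527 DHSs seen in at least 2 libraries. The Delta1-cultured libraries (6) were compared with the LSK and IgG libraries (6) in a two-sided exact permutation test, adjusted over the same DHSs. These sets also differ in IL-7 (DN2a and DN2b), in culture (LSK cells were fresh) and in the sort gates of the DN cells. Those cannot be told apart from the ligand, so higher or lower on Delta1 names the libraries and not a cause. A DHS open in both libraries of a DN group alone cannot go below exact p = 0.0455 across the 5 groups, so such DHSs could not be called. The sorted labels were checked at promoters. Il2ra, which encodes the sort marker CD25, Cd3e and Cd3g were open in the 4 DN2 libraries alone, Kit was open in all 12, and the LSK marker promoters Ly6a and Mecom had no peak in any library, LSK included. The other LSK markers, Flt3 and Cd34, differed across the groups (exact adjusted p = 0.0248 and 0.0176), with means of 92.6 and 62.1 in LSK, 91.96 and 75.5 in DN1 and 24.7 and 0 in IgG.

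The stretches on which the results turn are shown first, read from the GRCm38 reference (the assembly behind mm10) on the strand of the member gene, 5′ to 3′. They are the central 150 bp of the 8 DHSs open in all 6 Delta1-cultured libraries and in no other, followed by the Fos and Fosb promoter DHSs that hold a serum response element and by a DHS open in IgG libraries alone that holds a TPA response element. For Batf the stretch ends at the base before the gene start. They were picked after their values had been seen. Capitals mark matches on either strand to one of 5 motifs. The RUNX factors, needed for T cell development, were searched as TGTGGT. RBPJ, the DNA-binding partner of Notch, was searched with the letters TGGGAA on both strands. The GATA factors, among them the T lineage regulator GATA3, were searched as AGATAA. The TPA response element bound by AP-1 itself was searched as TGACTCA, and the serum response element by its usual consensus. No 2 motifs overlap in the stretches shown, and distances are from the gene 5′ end along transcription.
Jun -37.9 kb, chr4:95090087-95090236 (- strand): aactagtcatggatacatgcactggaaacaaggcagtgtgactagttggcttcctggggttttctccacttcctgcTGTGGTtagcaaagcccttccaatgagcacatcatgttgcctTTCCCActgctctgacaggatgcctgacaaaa
Jund -0.5 kb, chr8:70698397-70698546 (+ strand): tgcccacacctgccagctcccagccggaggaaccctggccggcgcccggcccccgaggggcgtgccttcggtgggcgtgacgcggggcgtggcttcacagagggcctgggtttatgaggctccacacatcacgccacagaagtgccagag
Fos -29.1 kb, chr12:85444747-85444896 (+ strand): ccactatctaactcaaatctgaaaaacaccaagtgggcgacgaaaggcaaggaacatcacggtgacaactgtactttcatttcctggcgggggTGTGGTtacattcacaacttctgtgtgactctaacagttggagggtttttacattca
Fos -26.6 kb, chr12:85447167-85447316 (+ strand): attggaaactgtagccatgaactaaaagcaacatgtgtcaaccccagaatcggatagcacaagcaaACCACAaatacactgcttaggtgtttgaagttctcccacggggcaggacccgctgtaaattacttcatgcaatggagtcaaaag
Fosb +43.6 kb, chr7:19266377-19266526 (- strand): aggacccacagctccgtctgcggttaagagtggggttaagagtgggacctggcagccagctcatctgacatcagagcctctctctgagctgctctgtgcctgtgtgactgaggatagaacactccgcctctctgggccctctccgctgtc
Batf promoter, chr12:85686557-85686668 (+ strand): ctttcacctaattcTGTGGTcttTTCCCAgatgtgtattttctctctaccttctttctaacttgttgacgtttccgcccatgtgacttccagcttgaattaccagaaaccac
Batf3 -0.3 kb, chr1:191097437-191097586 (+ strand): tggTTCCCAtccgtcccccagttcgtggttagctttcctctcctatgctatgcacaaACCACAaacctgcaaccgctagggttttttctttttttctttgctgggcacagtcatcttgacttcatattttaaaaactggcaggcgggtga
Batf3 +5.1 kb, chr1:191102837-191102986 (+ strand): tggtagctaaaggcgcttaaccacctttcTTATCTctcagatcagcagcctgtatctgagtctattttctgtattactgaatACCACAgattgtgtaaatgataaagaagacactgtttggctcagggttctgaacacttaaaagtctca
Fos -0.3 kb, chr12:85473527-85473676 (+ strand): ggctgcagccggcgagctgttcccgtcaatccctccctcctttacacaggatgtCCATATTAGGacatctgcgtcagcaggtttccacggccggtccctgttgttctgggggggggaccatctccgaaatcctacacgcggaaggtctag
Fosb -0.3 kb, chr7:19310287-19310436 (- strand): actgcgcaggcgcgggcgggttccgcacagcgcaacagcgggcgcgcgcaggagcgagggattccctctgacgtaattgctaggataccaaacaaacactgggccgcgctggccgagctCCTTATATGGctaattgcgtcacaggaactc
Batf3 +26.1 kb, chr1:191123827-191123976 (+ strand): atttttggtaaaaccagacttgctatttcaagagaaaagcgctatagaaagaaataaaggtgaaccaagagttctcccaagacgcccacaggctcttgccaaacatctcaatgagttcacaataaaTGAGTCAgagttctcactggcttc

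The RUNX letters stood in 6 of the 8 Delta1-pattern DHSs, in the pair upstream of Fos, at Jun -37.9 kb and in all 3 of the Batf and Batf3 DHSs. They were absent from Jund -0.5 kb and Fosb +43.6 kb. The same letters stood in 55.4% of the 3226 DHSs of the whole series with this pattern and in 23.1% of all 170207, so the members' share of the pattern is a description of few DHSs. RBPJ letters stood in 3 of the 8, at Jun -37.9 kb and at the Batf and Batf3 promoters, against 13.0% of the series' DHSs with the pattern. At the Batf promoter the RUNX and RBPJ matches lay side by side, 3 bases apart in the sequence printed above.

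The question was whether entry into the T lineage on Delta1 came with a change of accessibility at these genes. Of the 10 promoters, Jun, Junb, Jund, Fos, Fosb and Fosl2 were open in all 12 libraries, Fosl1 in 9, Batf and Batf3 in the 6 Delta1-cultured libraries alone, and Atf3 in none at the 5′ end of its gene record. Of the 12730 promoters tested in the series, 61.9% were open in all 12 libraries. Batf and Batf3 differed across the 5 groups (2 of the 9 tested), beside a background of 2939 of 12730 promoters (23.1%) called by the same rule, so that the count is not particular to the family.

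**Figure D1:**
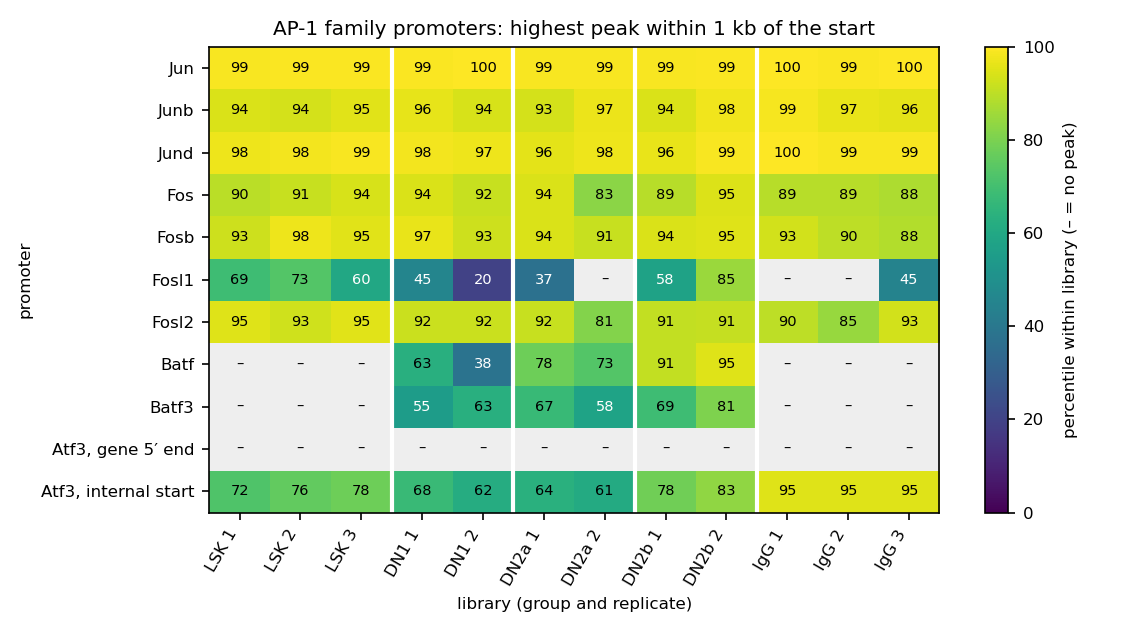
Score percentile (0 to 100 within each library) of the highest peak within 1 kb of the start, for the 10 genes (rows) in the 12 libraries (columns, by group and replicate), with a further row for the internal Atf3 start; a dash marks no peak. Batf and Batf3 carry values in the 6 DN columns alone, and the internal Atf3 start is highest in the 3 IgG columns.

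The JUN promoters ranked near the top of every list. Jun, the JUN member with the strongest transactivation domain, had percentiles of 98.8 to 99.8, median 99.3. Junb, which competes with JUN for partners, ranged from 93.4 to 98.6 and Jund, the JUN gene of resting cells, from 95.95 to 99.8. None of the 3 passed the test across the groups (exact permutation test, adjusted p = 0.112, 0.584 and 0.237). Nor did they at equal list lengths (exact permutation test, adjusted p = 0.0586, 0.176 and 0.0999), where Jun was highest in the 3 IgG libraries. Jund there had a mean of 94.5 in Delta1-cultured libraries against 98.2 (exact permutation test, adjusted p = 0.0513). With every coding transcript start the same exact permutation test gave 0.0497 for Jund, and on the full lists by gene record 0.115.

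Among the FOS genes, Fos ranged from 82.7 to 94.6, Fosb from 88.3 to 97.6 and Fosl2 from 81.5 to 95.3. The lowest value of Fos and of Fosl2 was in DN2a replicate 2, and none of these genes passed the test (exact adjusted p = 0.652, 0.306 and 0.28). At equal list lengths the Fosl2 promoter was lower in the Delta1-cultured libraries, with a mean percentile of 76.98 against 89.5 (two-sided exact permutation test, adjusted p = 0.0357), while on the full lists the same test gave 0.556. Fosl1, which encodes FRA1, was weaker and patchy, at 68.9, 73.2 and 59.8 in LSK, 45.4 and 19.6 in DN1, 37.2 and 0 in DN2a, 57.5 and 85.02 in DN2b and 0, 0 and 44.7 in IgG. All 3 LSK values lay above both DN1 values and the single DN2a value, the DN2b values lay on both sides, and the test across groups was not passed (exact adjusted p = 0.11). With lists of equal length the promoter was open in 6 libraries, at 49.2, 55.7 and 23.8 in LSK, 20.7 and 49.3 in DN2b and 37.05 in IgG replicate 3, and had no peak in DN1 or DN2a (exact adjusted p = 0.165).

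The Batf promoter (chr12:85686537-85686726) had no peak in any LSK or IgG library and stood at 63.2 and 38.3 in DN1, 77.8 and 73.1 in DN2a and 90.7 and 94.9 in DN2b. The 3 stages did not overlap and followed the order of differentiation, with means of 50.7 ± 17.6 (SD, n = 2), 75.5 ± 3.31 (SD, n = 2) and 92.8 ± 3.00 (SD, n = 2). Eta squared was 0.982 (exact permutation test, adjusted p = 0.00918). The difference between Delta1-cultured and other libraries passed as well (exact adjusted p = 0.0255), while 2 libraries against 2 cannot go below p = 0.333, so the steps between stages were not tested. With equal list lengths the peaks of both DN1 libraries dropped out and the promoter was open in the 4 DN2 libraries alone, at 53.9 and 52.9 in DN2a and 82.6 and 82.8 in DN2b (exact adjusted p = 0.0329 across the groups and 0.204 for Delta1 against other). The call across the groups remained when each of the 12 libraries was left out in turn and ended with presence or absence in place of the percentile (adjusted p over all alternatives from 0.00825 to 0.182). In that last setting no promoter open in the 6 Delta1-cultured libraries alone could be called.

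Batf3, known for its role in dendritic cells that cross-present antigen, had a promoter DHS (chr1:191097417-191097606) 0.3 kb upstream of the gene 5′ end. Its percentiles were 55.2 and 63.2 in DN1, 67.3 and 57.9 in DN2a and 68.9 and 80.6 in DN2b, with no peak elsewhere. In the full lists DN1 and DN2a overlapped and both DN2b values lay above them, with means of 59.2 ± 5.67 (SD, n = 2), 62.6 ± 6.70 (SD, n = 2) and 74.8 ± 8.23 (SD, n = 2). The promoter passed the test (eta squared 0.989, exact permutation test, adjusted p = 0.0158), but at equal list lengths it was open in 5 libraries, at 0 and 22.5 in DN1, 32.1 and 26.2 in DN2a and 42.03 and 34.2 in DN2b, where the stages did not overlap, and the adjusted p was 0.0586. The call also ended without DN1 replicate 2, DN2a replicate 2 or DN2b replicate 2, with exact adjusted p-values over all alternatives from 0.0138 to 0.182.

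Atf3, a stress-induced partner that often represses, had no peak at the 5′ end of its gene record (chr1, position 191218039) in any library. A shorter annotated coding transcript starts at position 191183340 within the gene, and the DHS over that start (chr1:191183257-191183586) was open in all 12 libraries. It stood at 72.4, 76.03 and 77.9 in LSK, 67.7 and 61.8 in DN1, 63.6 and 61.0 in DN2a, 78.3 and 83.3 in DN2b and 95.3, 95.1 and 95.1 in IgG. The 3 IgG values lay together at the top, above every other library. Taken over every annotated coding start, the Atf3 promoter differed across the groups (eta squared 0.972, exact permutation test, adjusted p = 0.0086, beside a background of 24% of 13581 promoters), with an IgG mean of 95.2 ± 0.08 (SD, n = 3). In lists of equal length the gap widened, with IgG at 94.6, 95.1 and 94.5 and the DN1 libraries at 5.56 and 19.5 (exact adjusted p = 0.00942).

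Over all DHSs of the windows, 236 of the 309 were seen in at least 2 libraries and could be tested, and 41 of them (17.4%) differed across the groups, against 22.3% of the 114527 DHSs tested in the series. Among distal DHSs 33 of 174 were called, with a background of 23.1%. Distal means away from gene 5′ ends, so the class holds the called DHSs at the internal Atf3 start and near a Rnaseh2a transcript start. In the Delta1-cultured libraries 17 DHSs (7.20%) were higher, beside 9.24% of all, and 2 (0.847%) were lower, beside 0.522%. In lists cut to equal length 173 member DHSs could be tested, of which 38 (21.97%) differed across the groups, beside 30.5% of all 59210 tested, 10 (5.78%) were higher on Delta1, beside 6.29%, and 8 (4.62%) were lower, beside 2.84%. The members' shares of DHSs called across the groups and of DHSs higher on Delta1 lay under the background, and those of the few DHSs lower lay above it, without a test of the difference; the DHSs are described for where they lie. The count of 41 fell to 9, 10 and 11 without IgG replicate 1, 2 and 3, and to 17, 21, 26, 23 and 22 without DN1 replicate 1, DN1 replicate 2, DN2a replicate 1, DN2a replicate 2 and DN2b replicate 2, while it was 28 without DN2b replicate 1 and 36 to 41 without an LSK library. The 17 higher on Delta1 fell to 10 or 11 without DN1 replicate 1, either DN2a or either DN2b library. The series share with a library left out was not counted, so these falls cannot be read as particular to these loci. With presence or absence in place of the percentile no DHS was called by the exact permutation test, 52 having an unadjusted p under 0.05. Even a DHS open in all 6 Delta1-cultured libraries and no other, as Fos -26.6 kb, had exact adjusted p = 0.0632 there. That setting therefore could not call such a pattern. In the upper 50% of each list, 8 of the called distal DHSs named below lost the call across the groups (exact permutation test, adjusted p = 0.0539 to 0.379), Jun +43.9 kb, Jund +1.2 kb and -45.5 kb, Fosb -25.8 kb and +52.5 kb, Fosl1 -40.2 kb, Fosl2 +2.8 kb and Batf3 -24.5 kb. The median eta squared was 0.63 over the members' DHSs and 0.68 over all.

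**Figure D2:**
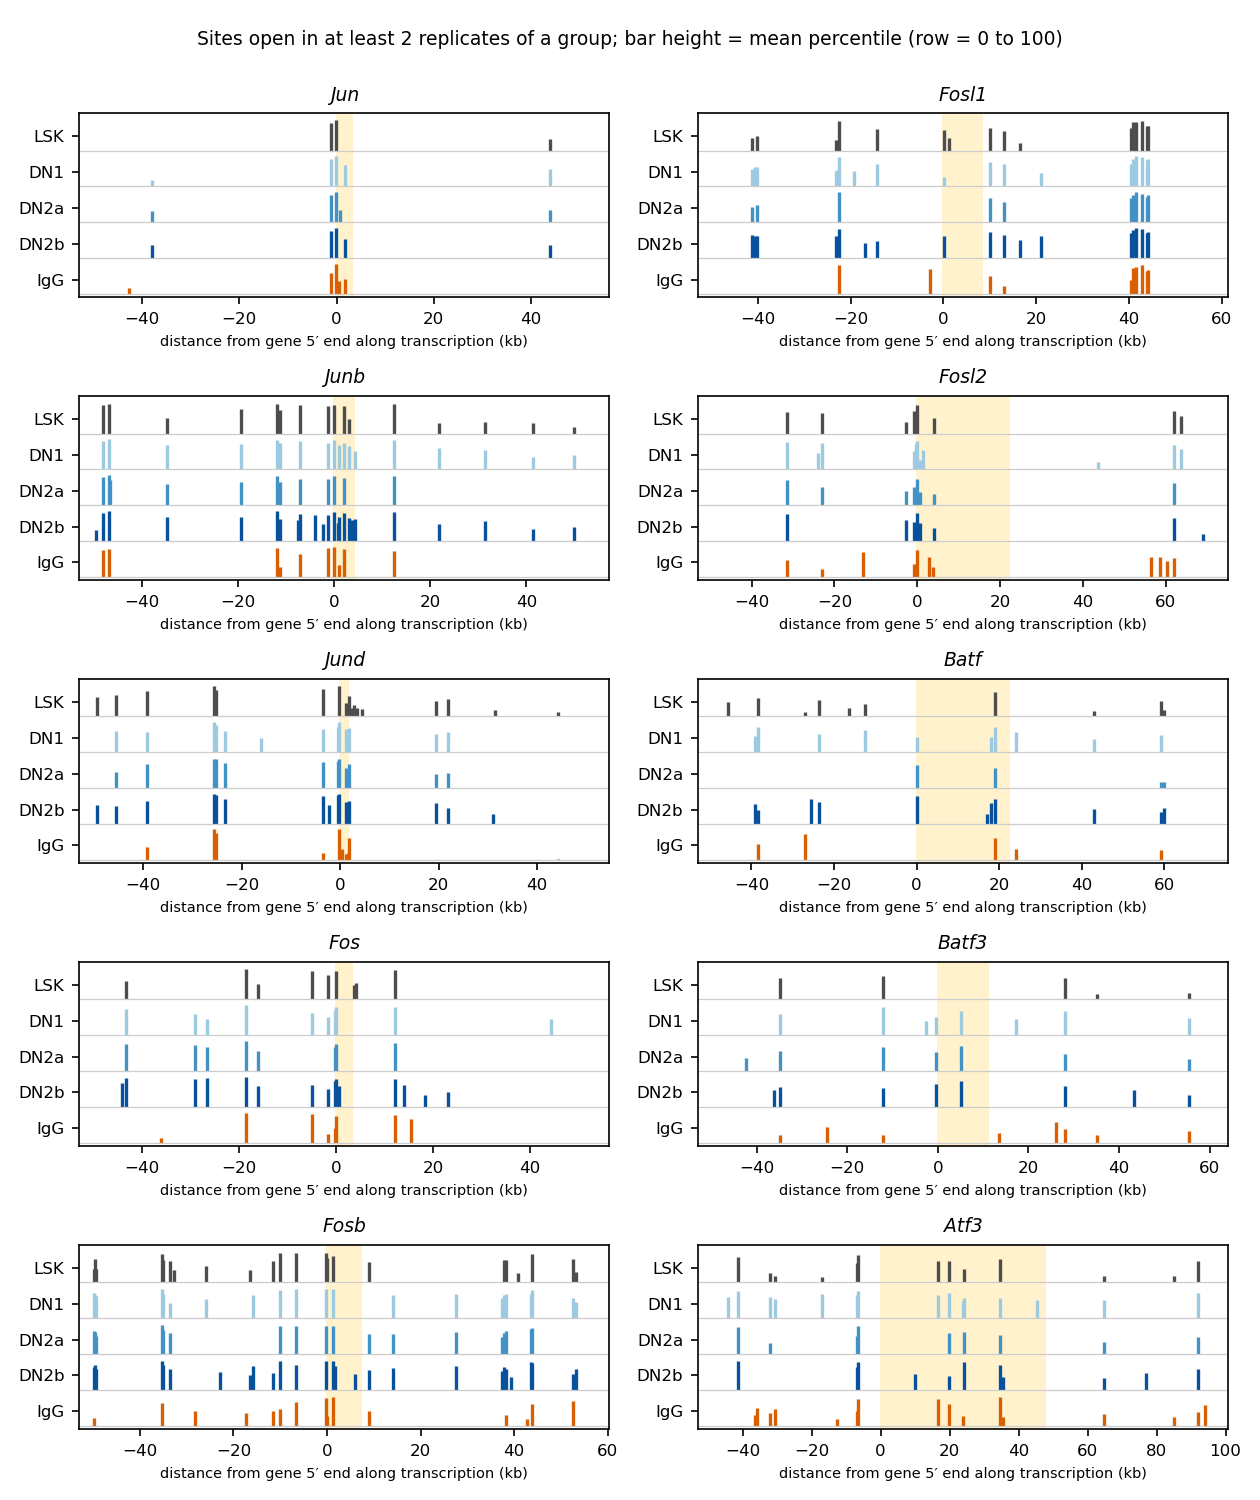
DHSs around each gene by distance from the gene 5′ end (kb, along transcription), with one row per group; a bar marks a DHS open in at least 2 libraries of the group, its height is the group's mean score percentile (each row runs from 0 to 100), and the shaded band is the gene body. The Batf and Batf3 starts carry bars in the 3 DN rows alone, and the DHS 34.6 kb into Atf3 is tallest in the IgG row.

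The Fos window held 4 called DHSs among 24 tested, beside the series background of 22.3%, without a test of the difference. Of these, 3 lay upstream of Fos, the prototype immediate early gene of the family. A DHS at -43.3 kb (chr12:85430517-85430726), within a non-coding gene, stood at 54.9, 65.01 and 64.3 in LSK, 89.1 and 85.8 in DN1, 92.03 and 84.1 in DN2a, 94.2 and 96.4 in DN2b and 0, 0 and 0 in IgG. The 6 DN values lay above the 3 LSK values, and no IgG library had a peak (eta squared 0.994, exact permutation test, adjusted p = 0.00595). Closer to the gene, the DHSs at -29.1 and -26.6 kb, both between genes, had no LSK or IgG peak. The first stood at 74.2 and 67.2 in DN1, 87.1 and 82.7 in DN2a and 85.9 and 94.9 in DN2b (exact adjusted p = 0.00781) and the second at 53.7 and 49.5 in DN1, 86.0 and 74.1 in DN2a and 92.3 and 95.2 in DN2b (adjusted p = 0.00595). At -26.6 kb the 3 stages did not overlap and followed in order from DN1 to DN2b, while at -29.1 kb DN2a replicate 1 exceeded DN2b replicate 1 in the full lists alone. At equal list lengths the -26.6 kb DHS was left in the 4 DN2 libraries alone and the -29.1 kb DHS in all 6. All 3 calls remained when each library was left out in turn.

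Not all of the Fos upstream region moved. The DHS at -18.5 kb (chr12:85455297-85455486) was among the strongest of every list, at 97.5 to 99.6 (exact adjusted p = 0.968). At -5.1 kb (chr12:85468737-85468926) the direction was the opposite of that farther out, with 94.3, 92.2 and 92.5 in LSK, 85.4 and 61.8 in DN1, 81.3 and 0 in DN2a, 66.8 and 77.9 in DN2b and 91.9, 95.7 and 92.1 in IgG. Every LSK and IgG value lay above every DN value, and the DHS was lower in Delta1-cultured libraries (two-sided exact permutation test, adjusted p = 0.0265), with 0.197 across the 5 groups. It is one of the 2 member DHSs lower on Delta1 and was named after its values had been seen. At the promoter itself the DHS at -0.3 kb (chr12:85473497-85473706), which holds the serum response element printed above, had no peak in the 3 fresh LSK libraries and stood at 91.4 and 75.4 in DN1, 75.4 and 80.7 in DN2a and 78.99 and 88.6 in DN2b, with 68.7, 0 and 71.6 in IgG. It was thus seen in all 6 Delta1 cultures and in 2 of the 3 IgG cultures, and was higher in Delta1-cultured libraries (exact adjusted p = 0.0265), with 0.0844 across the groups. It lies within 0.3 kb of the main promoter peak, which was open in every library. Neither this DHS nor that at -5.1 kb was followed through the alternatives. On the other side, a DHS at +15.6 kb was open in the IgG libraries alone.

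Fosb had 10 called DHSs among 38 tested, beside the series background of 22.3%, without a test of the difference. It encodes a FOS protein whose short splice form is known for its long life in neurons. Downstream of it, at +43.6 kb in an exon of Vasp (chr7:19266297-19266606), a DHS stood at 83.6 and 73.7 in DN1, 78.6 and 84.7 in DN2a and 86.4 and 93.4 in DN2b and had no other peak. It was called (exact permutation test, adjusted p = 0.012), and the call was lost without IgG replicate 1 or 2. The adjacent DHS at +43.9 kb (chr7:19265997-19266286) was open in all 12 libraries. It was called across the groups (exact adjusted p = 0.0438), a test that gives no direction. That DHS was named after its call had been seen, and the alternatives were not run for it. At +52.5 kb, in a UTR of Vasp (chr7:19257437-19257626), the values were 78.1, 67.6 and 84.7 in LSK, 75.01 and 58.6 in DN1, 34.9 and 0 in DN2a, 46.98 and 59.2 in DN2b and 81.1, 77.2 and 79.6 in IgG. The lowest values were those of DN2a and of DN2b replicate 1, and this is the other DHS lower on Delta1 (exact adjusted p = 0.0444, and 0.0219 across the groups). Its call across the groups was lost without any single DN1, DN2b or IgG library or DN2a replicate 2. In equal-length lists no DN2 library had a peak here, and DN1 stood at 26.9 and 12.7, LSK at 64.2, 46.4 and 70.95 and IgG at 78.5, 77.2 and 76.7. A DHS at -25.8 kb (chr7:19335737-19335926) was open in LSK (54.9, 58.9 and 48.7) and DN1 (59.4 and 65.9) and had no peak in DN2a, DN2b or IgG (exact adjusted p = 0.0207); at equal list lengths the call was lost. The DHS at -6.6 kb (chr7:19316537-19316786) was open in all 12, at 94.6, 96.8 and 95.04 in LSK, 96.6 and 95.5 in DN1, 95.4 and 88.2 in DN2a, 78.99 and 83.3 in DN2b and 76.02, 80.9 and 75.4 in IgG, with DN2b and IgG below every LSK and DN1 value (exact adjusted p = 0.023). It was singled out after its values had been seen, and the alternatives were not run for it. Within the gene, the DHS at +1.4 kb had 82.4 to 97.9 over all libraries and was not called (exact adjusted p = 0.193).

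Jund had 6 called DHSs among 26 tested, near the series background of 22.3%. At the Jund promoter the main peak was open in all 12 libraries. Beside that peak, 0.5 kb upstream (chr8:70698377-70698566), a DHS appeared in the Delta1-cultured libraries alone, at 87.6 and 80.6 in DN1, 83.8 and 92.3 in DN2a and 89.8 and 97.2 in DN2b (exact permutation test, adjusted p = 0.0131). It kept a peak in all 6 at equal list lengths, and the other alternatives were not run for it. At -3.4 kb (chr8:70695357-70695666) the values were 88.9, 86.3 and 90.1 in LSK, 74.2 and 75.4 in DN1, 83.8 and 85.3 in DN2a, 90.2 and 94.9 in DN2b and 39.9, 26.2 and 0 in IgG. In the full lists the IgG values lay below every other library (exact adjusted p = 0.00595; lost without either DN1 or either DN2a library). With equal lengths they overlapped with DN1, at 31.6, 26.2 and 0 against 24.5 and 48.2. At +1.2 kb, in the UTR of the gene (chr8:70699937-70700266), the values were 48.6, 42.2 and 44.3 in LSK, 78.5 and 76.2 in DN1, 69.6 and 63.9 in DN2a, 59.03 and 83.3 in DN2b and 29.5, 29.3 and 0 in IgG. All 6 DN values lay above the LSK values, and these above the IgG values, in the full lists (exact adjusted p = 0.0191; lost at equal list lengths and without any single DN1, DN2a or IgG library). In equal-length lists that order did not hold, with 15.9, 4.35 and 0 in LSK, 37.1 and 49.9 in DN1, 36.8 and 36.8 in DN2a, 23.6 and 43.6 in DN2b and 19.8, 29.3 and 0 in IgG. A DHS at -45.5 kb in an intron of Pgpep1 (chr8:70653357-70653546) ranged from 46.5 to 75.5 outside IgG, with no IgG peak (exact adjusted p = 0.0218); the call ended at equal list lengths and without DN2a replicate 2 or any IgG library. The one DHS of the 309 that was open in the 3 LSK libraries alone also lay here, at +2.9 kb, with 33.1, 13.3 and 64.3 (1 of 309, against 0.649% of the series), and was not called (exact adjusted p = 0.116); LSK replicate 3 alone had it at equal lengths.

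The Jun window held 1 called DHS among 14 tested, beside the series background of 22.3%, without a test of the difference. At -37.9 kb, within non-coding genes (chr4:95090077-95090246), the Delta1-pattern DHS was weak, at 35.7 and 7.76 in DN1, 25.5 and 48.6 in DN2a and 28.2 and 58.1 in DN2b. It was higher in Delta1-cultured libraries (two-sided exact permutation test, adjusted p = 0.0265), as is any DHS with peaks in those 6 libraries alone. That p therefore adds nothing to the pattern by which the DHS was picked. It was not called across the groups (exact adjusted p = 0.0927), and at equal list lengths it was left in 1 library. At +43.9 kb (chr4:95008257-95008466) a DHS was open in all libraries but IgG, at 33.1, 31.6 and 46.5 in LSK and 66.6 and 45.2 in DN1, 43.5 and 35.1 in DN2a and 30.8 and 54.7 in DN2b (exact adjusted p = 0.0322). It was lost in all but 1 library at equal list lengths, and the part of the shorter IgG lists was not tested. The call also ended without DN1 replicate 1 or without any single DN2a or IgG library. The DHS at -1.1 kb (chr4:95053217-95053446) was open in all 12 and lowest in IgG, at 58.6, 65.4 and 80.3 against 83.5 to 93.97 elsewhere, and was not called (exact adjusted p = 0.116); at equal lengths IgG replicate 3 lay among the other libraries. For Junb, beside the same background, 1 DHS of 28 tested was called. It lies at +12.6 kb in a UTR of Rnaseh2a (chr8:84966077-84966246), 97 bp from a coding transcript start of that gene, and was open in every library, at 86.1, 85.5 and 83.9 in IgG and 93.8 to 97.4 in the rest (exact adjusted p = 0.0348; lost at equal list lengths, where DN2b replicate 2 lay below IgG replicate 2, and without any single DN1, DN2b or IgG library or DN2a replicate 1).

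The strongest constant distal DHS of Jund lay at +1.8 kb, at 43.7 to 85.02, and that of Fosl1 at +44.1 kb, at 75.2 to 94.6, and neither was called (exact permutation test, adjusted p = 0.849 and 0.441). Around Fosl1, a pair of DHSs far upstream was open in all libraries but IgG. The one at -41.4 kb (chr19:5406057-5406266) stood at 41.2, 49.3 and 32.1 in LSK and 63.2 and 53.4 in DN1, 41.4 and 57.9 in DN2a and 69.9 and 83.8 in DN2b (exact permutation test, adjusted p = 0.0111), and that at -40.2 kb (chr19:5407217-5407446) at 48.6, 39.7 and 58.1 in LSK and 67.7 and 63.2 in DN1, 43.5 and 70.02 in DN2a and 65.6 and 82.4 in DN2b (adjusted p = 0.0235). DN2b replicate 2, the longest list, had the highest value of both in the full lists, and both calls ended at equal list lengths and without any single IgG library, the second also without DN1 replicate 1. Near the gene, at -2.9 kb (chr19:5444617-5444766), a DHS was open in IgG alone, at 85.6, 86.8 and 72.6 (exact adjusted p = 0.0438).

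Fosl2, which encodes FRA2, showed IgG peaks on both sides. At -13.2 kb (chr5:32122477-32122666) IgG stood at 81.1, 82.5 and 78.8, while LSK replicate 2 had 34.5, DN1 replicate 1 had 29.4 and no other library had a peak (exact permutation test, adjusted p = 0.0438; lost without any single DN or IgG library). The peaks outside IgG were absent at equal list lengths. At +2.8 kb, in an exon of the gene (chr5:32138537-32138726), IgG alone had peaks, at 81.1, 73.1 and 44.7 (exact adjusted p = 0.0438; lost at equal list lengths and without any single DN or IgG library). At -31.5 kb (chr5:32104217-32104426) every library had a peak, with 70.1, 63.6 and 76.3 in LSK, 88.7 and 89.6 in DN1, 81.3 and 85.96 in DN2a, 86.4 and 93.4 in DN2b and 55.6, 40.9 and 68.1 in IgG. The DN values lay above all LSK and IgG values in the full lists, but not at equal lengths, where IgG replicate 3 had 63.7 and DN2a replicate 1 had 61.2. On the full lists the DHS was higher in Delta1-cultured libraries (exact adjusted p = 0.0265); its call across the groups (adjusted p = 0.0438) ended at equal list lengths and when any library but IgG replicate 3 was left out.

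At Batf3 the promoter DHS had a companion in the intron at +5.1 kb (chr1:191102777-191103046). It stood at 80.4 and 77.8 in DN1, 79.3 and 82.1 in DN2a and 80.3 and 88.6 in DN2b, with no LSK or IgG peak (eta squared 0.998, exact permutation test, adjusted p = 0.0151; lost without any single IgG library). It had a peak in all 6 DN libraries at equal list lengths, where the promoter had 5, and stood there at 42.5 and 53.2 in DN1, 56.98 and 68.6 in DN2a and 63.3 and 61.2 in DN2b, with DN1 below every DN2 library. Batf3 had no DHS open in all 12 libraries, the only one of the 10 windows without. Within the Batf window the DHS at -27.1 kb (chr12:85659437-85659666) went the other way from the promoter. IgG stood at 90.8, 87.9 and 73.6, LSK replicates 1 and 2 at 30.2 and 13.3, DN2a replicate 1 at 16.1, and the other 6 libraries had no peak (exact adjusted p = 0.0298; lost without any single DN or IgG library). IgG alone, in lists cut to equal length, had peaks here, at 89.6, 87.9 and 69.9. The intronic DHS at +19.0 kb (chr12:85705577-85705806) was open in all 12, at 59.5 to 87.97, and was not called (exact adjusted p = 0.186).

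Atf3 carried DHSs of several patterns beside its internal start. At -41.3 kb (chr1:191259177-191259446) a strong DHS was open in all libraries but IgG, at 73.4, 83.3 and 87.8 in LSK and 90.1 and 87.8 in DN1, 88.99 and 87.7 in DN2a and 93.5 and 95.2 in DN2b (exact permutation test, adjusted p = 0.0156; lost without any single IgG library). It was present in the same 9 libraries at equal list lengths. In the intron at +16.6 kb (chr1:191201297-191201486) the values were 64.99, 81.4 and 61.3 in LSK, 80.4 and 72.7 in DN1, 0 and 39.98 in DN2a, 0 and 0 in DN2b and 87.1, 84.7 and 85.7 in IgG. Thus LSK, DN1 and IgG were high and DN2 was low or closed (exact adjusted p = 0.0292; lost without DN1 replicate 1 or any single DN2b or IgG library). At -17.0 kb the DN1 libraries stood apart, at 80.4 and 74.6, with 22.4 and 24.1 in LSK replicates 2 and 3 and no peak elsewhere (exact adjusted p = 0.0438); this DHS was singled out after its values had been seen, and the alternatives were not run for it. The DHS at -6.4 kb (chr1:191224357-191224546) was open throughout, at 83.2 to 93.5 (exact adjusted p = 0.788).

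Counted over the family, 38 of the 309 DHSs (12.3%) were open in all 12 libraries (7.68% of the series), 8 (2.59%) in all 6 Delta1-cultured libraries and no other (1.9%), 9 (2.91%) in all but the IgG libraries (3.17%) and 7 (2.27%) in the 3 IgG libraries alone (1.89%). No DHS had a peak in each LSK and IgG library and none on Delta1, a pattern held by 0.0987% of the series. A further 73 (23.6%, against 32.7%) were seen in a single library. At equal list lengths 5 of the 8 Delta1-pattern DHSs kept a peak in at least 5 of the 6 libraries, Fos -26.6 kb and Batf in 4 and Jun -37.9 kb in 1. Markers of several cell types were read beside this set. Of the 8 listed early T markers, 1 was open in each LSK library, 3 in each DN1, 6 in each DN2a, 6 or 7 in DN2b and none in IgG, with percentiles summing to 6.12 to 27.3, 142.7 to 160.3, 426.9 to 442.4, 490.6 to 611.3 and 0. Ptcra had no peak in any library. Of 4 Notch targets 3 could be tested, and Hes1 and Nrarp were higher in Delta1-cultured libraries (exact permutation test, adjusted p = 0.0255 and 0.0454). Hes1 alone of them was called across the groups (exact adjusted p = 0.0104). The erythroid promoter Epor was also called (exact adjusted p = 0.0367), with peaks in every LSK and DN library and none in IgG. The B promoter Ebf1 was tested and not called (exact adjusted p = 0.0764). The NK marker promoters Klrd1 and Klrb1c and the mast cell and basophil promoters Cpa3 and Mcpt8 were higher in Delta1-cultured libraries as well (exact permutation test, adjusted p = 0.0255, 0.0255, 0.0255 and 0.0454), beside 13.7% of the 12730 promoters tested. Their means were 13.7, 37.4, 38.2 and 0 in LSK, 95.1, 90.7, 76.1 and 49.8 in DN1, 77.8, 86.3, 79.5 and 38.6 in DN2a, 69.97, 76.9, 63.6 and 27.5 in DN2b and 0, 0, 0 and 11.6 in IgG. Ncr1, Fcer1a and Ms4a2 had no peak. These 4 promoters were open at equal list lengths in 6 of 8, 8 of 8, 7 of 9 and, for Mcpt8, 1 of 7 of the libraries that had a peak in the full lists. The part of such cells in these results was not tested.

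The 7 IgG-only DHSs were Fos +15.6 kb (83.5, 75.2 and 75.4), Fosl1 -2.9 kb, Fosl2 +2.8 kb, Fosl2 +58.7 kb (58.6, 63.9 and 68.1), Batf3 -24.5 kb in an intron of Nsl1 (57.1, 52.8 and 40.04), Batf3 +26.1 kb (70.7, 66.9 and 66.9) and Atf3 -35.8 kb (65.3, 43.4 and 65.5). Each had an exact adjusted p of 0.0438 across the groups, since a DHS open in one trio of libraries alone cannot go below p = 0.00909 in this test, and for Fosl1 -2.9 kb, Fosl2 +2.8 kb and both Batf3 DHSs, which were followed through the alternatives, the call ended when any DN or IgG library was left out. The Batf3 +26.1 kb DHS (chr1:191123817-191123986) holds the TPA response element printed above, the letters that stood in 15.2% of the 3213 IgG-only DHSs of the series and in 6.01% of all. Of the 7 listed myeloid markers 4 could be tested and 1, S100a8, was called, beside the background of 23.1% of promoters. The others gave too few peaks or missed the threshold, Lyz2, open in all 12, and Itgam, open in 11, with exact adjusted p = 0.154 and 0.11. Of the 7, 4 to 6 were open in an IgG library, 1 to 3 in LSK, and 2 or 3 in the DN libraries, with summed percentiles of 260.2 to 416.5 in IgG, 62.8 to 101.1 in LSK, 121.0 to 145.3 in DN1, 78.8 to 118.8 in DN2a and 28.6 to 105.0 in DN2b. S100a8 was open in IgG alone, at 93.5, 97.7 and 69.3, while Mpo, Elane and Csf1r were each open in 1 IgG library. The part of other cell types in these results was not tested.

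**Figure D3:**
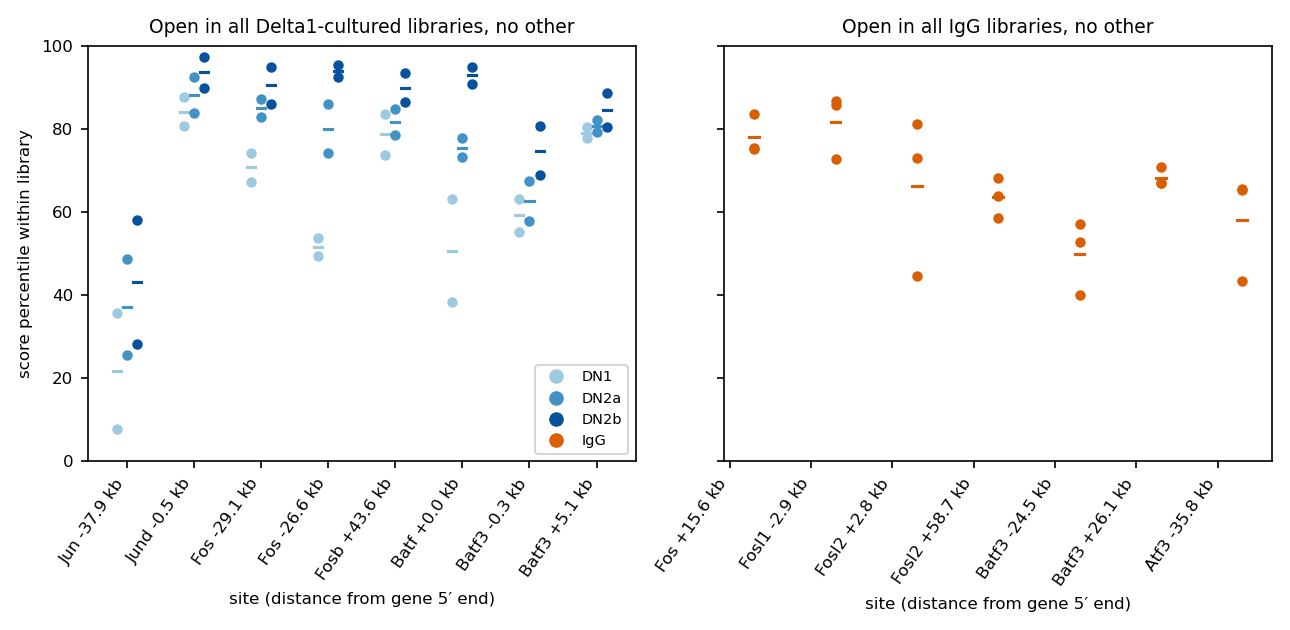
Score percentile within the library (0 to 100) of the 8 DHSs open in all Delta1-cultured libraries and no other (left) and of the 7 DHSs open in the IgG libraries alone (right); each point is a library, coloured by group, and each short line is a group mean. Groups without points had no peak, and at Fos -26.6 kb and Batf the DN1, DN2a and DN2b points do not overlap.

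Between successive stages, DHSs counted as gained when all libraries of the later group and no library of the earlier had a peak, and as lost in the reverse case. Such counts have no p, since 3 libraries against 2 cannot go below 0.1. From LSK to DN1 the windows gained 19 DHSs and lost 5 (series background 7.77% and 1.17% of DHSs; members 6.15% and 1.62%), with 4 of the gains at Batf3 and 3 each at Fos and Fosb. From DN1 to DN2a they gained 3 and lost 18 (background 1.3% and 6.32%), 4 of the losses at Atf3. From DN2a to DN2b they gained 22 and lost none (background 3.78% and 0.533%), and 8 of the gains lay at Junb and 5 at Fosb. The list lengths follow the same course, and at equal lengths, over 215 member DHSs, the counts were 10 and 5 (background 5.6% and 4.36%), 3 and 12 (3.95% and 4.41%), and 10 and 1 (2.63% and 2.59%). Over the whole course, DN2b against LSK, the windows had 30 gains and 4 losses (background 9.06% and 2.73%), 7 of the gains at Fos, and at equal lengths 20 and 7 (9.43% and 7.29%). Leaving out 1 library moved the counts. The LSK to DN1 gains were 29 without DN1 replicate 1 and 53 without DN1 replicate 2. The DN1 to DN2a losses were 52 without DN1 replicate 2 and 37 without DN2a replicate 1. The DN2a to DN2b gains were 45 without DN2a replicate 1 and 69 without DN2b replicate 1, and without the latter the LSK to DN2b gains were 77.

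Against the control culture, LSK cells on IgG gained 10 DHSs and lost 15 relative to fresh LSK (background 2.51% and 7.87%). Of the gains 4 lay at Fosl2 and 3 at Batf3, and of the losses 5 at Jund. IgG against DN1 gave 10 gained and 45 lost (2.48% and 17.9%), and against DN2b 13 and 58 (3.41% and 17.3%), 9 of the losses at Junb and 8 each at Fos, Fosb and Fosl1. With lists of equal length, over the same 215 member DHSs, these counts were 15 and 10 (background 7.24% and 7.03%), 14 and 18 (8.19% and 10.1%), and 21 and 37 (10.2% and 13.5%), so from fresh LSK to IgG the excess turned from losses to gains. The losses from fresh LSK were 23 without LSK replicate 1 and 26 without LSK replicate 2, those from DN1 were 85 without DN1 replicate 2, and those from DN2b were 115 without DN2b replicate 1. Comparisons that share the IgG or LSK libraries are not independent.

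**Figure D4:**
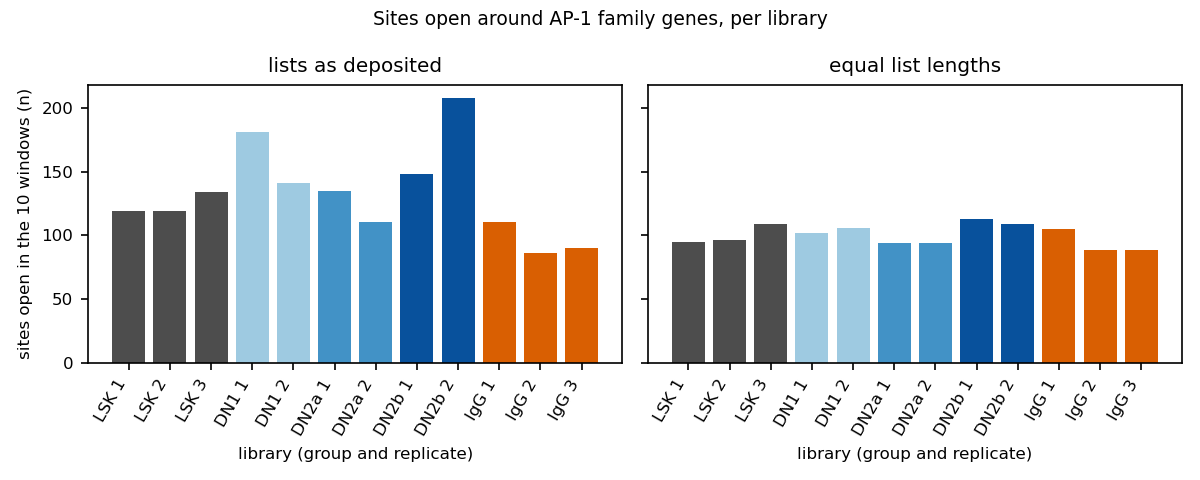
Number of DHSs open in the 10 windows per library (bars, from 0), coloured by group, in the lists as deposited (left) and in lists cut to equal length (right). As deposited the counts run from 86 in IgG replicate 2 to 208 in DN2b replicate 2, and at equal lengths from 88 to 113.

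The number of open DHSs per library was 124 ± 8.66 in LSK (SD, n = 3), 161 ± 28.3 in DN1 (n = 2), 122.5 ± 17.7 in DN2a (n = 2), 178 ± 42.4 in DN2b (n = 2) and 95.3 ± 12.9 in IgG (n = 3). At equal list lengths the means were 100 ± 7.81, 104 ± 2.83, 94 ± 0, 111 ± 2.83 and 93.7 ± 9.81, and both DN2b libraries stood at or above the highest library of every other group. As a share of all DHSs of the same library the order differed, with 0.301%, 0.268% and 0.246% in IgG, 0.226%, 0.223% and 0.220% in LSK, 0.193% and 0.209% in DN1, 0.203% and 0.196% in DN2a and 0.249% and 0.192% in DN2b. Thus the IgG group had the lowest mean count and shares among the highest, although IgG replicate 1 had as many DHSs as DN2a replicate 2 (110) and at equal lengths, with 105, more than either DN2a library. As deposited, Fosb had the most DHSs open per library, with a median of 22.5, and Jun the fewest, with 6. At equal lengths Batf3 had 3 in each LSK library, 5 or 6 in the DN libraries and 7 in each IgG library, and Junb had 20 in both DN2b libraries against 9 to 13 in IgG.

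Other genes of the pathway were read at their promoters from lists chosen by known role. Of 20 further bZIP partners, 16 were open in all 12 libraries (61.9% of promoters tested) and 4 differed across the groups (median eta squared 0.69, as over all promoters), near the background of 23.1%. Jdp2, a repressor that pairs with JUN, was lower in Delta1-cultured libraries, at 90.99, 78.5 and 84.1 in LSK, 68.8 and 40.7 in DN1, 39.3 and 0 in DN2a, 54.3 and 68.5 in DN2b and 89.7, 73.1 and 77.2 in IgG (exact permutation test, adjusted p = 0.0427, and 0.0255 for Delta1 against other), and at equal list lengths it was open in 8 libraries in place of 11. Bach2, a repressor of AP-1 sites in lymphocytes, was open in every library but IgG replicate 2 and lowest in IgG, at 46.7, 0 and 42.4 against 77.1 to 91.4 elsewhere (exact adjusted p = 0.0391). Atf4 and Nfe2l1 passed within the top few percent of every list, Nfe2l1 at 97.3, 97.3 and 97.2 in IgG and 98.9 to 99.9 elsewhere. Maf, at 91.7 and 92.5 in DN1, 92.7 and 91.04 in DN2a and 95.7 and 97.2 in DN2b, was higher in Delta1-cultured libraries (exact adjusted p = 0.0255) and not called across the groups (adjusted p = 0.109).

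Of 12 promoters of kinases and serum response inputs, 11 were open in all libraries, beside the same 61.9%, and 2 were called, Map2k7 and Elk4, beside the background of 23.1% of promoters (median eta squared 0.54, against 0.69 over all promoters). Elk4, a partner of the serum response factor, stood at 76.9, 54.9 and 68.1 in IgG and at 90.2 to 98.8 elsewhere (exact adjusted p = 0.0392). Srf itself was open throughout and not called (exact adjusted p = 0.319). Of 8 other immediate early genes 1 was called, beside the same background. Zfp36, which encodes an mRNA decay factor, was lower in Delta1-cultured libraries, at 97.96, 97.8 and 97.5 in LSK, 92.7 and 92.2 in DN1, 89.9 and 91.04 in DN2a, 91.9 and 95.5 in DN2b and 97.1, 95.4 and 97.9 in IgG (exact adjusted p = 0.0424, and 0.0363 for Delta1 against other). Nr4a1, an orphan receptor gene, was open in LSK (85.9, 75.1 and 84.7) and in DN2b replicate 2 (64.1) alone, and missed the threshold (exact adjusted p = 0.0513). Of the 5 partners of BATF or AP-1 in lymphocytes, 3 could be tested and none was called across the groups by the exact permutation test, 1 of them, Nfatc3, with an unadjusted p under 0.05 (adjusted p = 0.0612). Nfatc3, an NFAT factor, was higher in Delta1-cultured libraries (exact adjusted p = 0.0255) and stood above 95 in every library. Irf4 and Irf8, with which BATF binds composite sites, were open in all 12 libraries (exact adjusted p = 0.501 and 0.904).

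The promoters whose course over the 12 libraries was most like that of Batf were Card6, Il9r and Gzma (Pearson r 0.988, 0.987 and 0.987), and most like Batf3 were Sytl1, Nkg7 and Hsd11b1 (0.996, 0.995 and 0.995). These are descriptions over 12 libraries of 5 groups whose list lengths differ. Of 12730 promoters tested, 62 were above r = 0.95 for Batf and 73 for Batf3. Il9r, for example, had no LSK or IgG peak and means of 52.0 in DN1, 83.2 in DN2a and 92.6 in DN2b.

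Sequence letters were counted in the central 150 bp of each DHS, on both strands. The TPA response element (TGACTCA) stood in 24 of the 309 member DHSs (7.77%; 6.01% of all), among them the main Fosl2 promoter DHS and the constant DHS at Atf3 -6.4 kb. The cAMP response element stood in 2 (0.647%; 0.536%), both seen in a single library. The serum response element stood in 6 (1.94%; 0.726%), 1 of them at the Fos promoter and 1 at the Fosb promoter. RBPJ letters stood in 47 (15.2%; 12.8%), RUNX letters in 60 (19.4%; 23.1%) and GATA letters in 13 (4.21%; 8.25%). A composite of an IRF element and the TPA response element stood in 1, at Fosb +26.9 kb, which also counts among the TPA matches. The member DHSs were richer in G and C than the series, with 55.1% ± 8.70 (SD, n = 309) against 50.5% ± 9.23 (SD, n = 170207), which bears on such counts. A match is a description of letters and not of binding.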

How the data were processed

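DNase-seq libraries of 12 mouse samples were grouped by their labels into LSK (3), DN1 (2), DN2a (2), DN2b (2) and IgG (3). Numbers given to replicates are mere names, in accession order. The authors trimmed paired-end reads, aligned them to mm10 with BWA 0.7.12, processed them with SAMtools 1.2 (versions from the submitters' processing notes) and called peaks in each library (hotspot2, false discovery rate 0.05). The notes also list GRCh38, which was not used. The deposited lists give 150-bp peaks with a score, a whole number of unstated meaning, so it was used as a rank alone. Read depth and the precision it gives are unknown; list lengths are in the text.

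Peaks overlapping by at least 1 bp were merged into DHSs (autosomes and X; Y and M held 0.0622% of peaks). The percentile is the mid-rank of the score within a library, 0 without a peak. Genes came from the GENCODE vM21 annotation and sequence from GRCm38, whose chromosome ends no peak passed. The test across 5 groups enumerated 138600 divisions of the libraries, that of Delta1 against other 924 (smallest p 0.00216), with Benjamini-Hochberg adjustment at 0.05. Scripts were tested on simulated data. The members and lists were chosen with earlier results of these data known. Named were all members' promoters, up to 3 called distal DHSs per member by p, the strongest constant distal DHS, and the 3 most similar promoters of each called member promoter. DHSs named beyond this rule were Fos -5.1 kb, -0.3 kb and +15.6 kb, Fosb -6.6 kb and +43.9 kb, Jund -0.5 kb and +2.9 kb, Jun -37.9 kb, Fosl2 +58.7 kb, Atf3 -35.8 kb and -17.0 kb and the motif example Fosb +26.9 kb, and these were chosen after their values were seen. Alternatives were equal list lengths, the upper 50% of each list, presence or absence, an overlap of 50 bp, at least 4 libraries, windows of 25 and 100 kb, promoters of 500 bp and 2.5 kb, every transcript start, and each library left out. Python 3.11.15, numpy 2.4.6, pandas 2.3.3, numba 0.67.0, pysam 0.24.0 and matplotlib 3.10.9 were used.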

Additional observations from a re-analysis of the deposited data

How the results depend on the processing

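Unknown depth and unequal list lengths limit every count here. The calls with other windows or with a library left out are bare counts, without the share of the series beside them. They therefore cannot show a trait particular to these loci. No paired analysis was possible because the replicate numbers were given in accession order and carry no pairing. With windows of 25 kb, 21 DHSs were called across the groups, 8 were higher and 1 lower in Delta1-cultured libraries, the median library had 75.5, LSK to DN1 lost 3, LSK to IgG gained 6 and lost 4, DN1 to IgG gained 6 and lost 26, DN2b to IgG lost 32 and LSK to DN2b gained 19 and lost 2. With 100 kb these were 66, 35, 4 and 203, LSK to DN1 gained 32 and lost 9, DN1 to DN2a gained 5, DN2a to DN2b lost 2, DN2b to IgG lost 88 and LSK to DN2b gained 56 and lost 12; both windows change the DHSs counted. At equal list lengths 10 were higher and 8 lower, LSK to DN1 gained 10, DN2a to DN2b gained 10 and lost 1, DN1 to IgG lost 18, DN2b to IgG gained 21 and lost 37, LSK to DN2b lost 7, and 1 promoter (Batf) was called, while 38 DHSs were called across the groups; the cause was not tested. In the upper 50% of each list DN1 to DN2a gained 1, LSK to IgG 6, DN1 to IgG 6 and DN2b to IgG 7, and LSK to DN2b lost 2. With presence or absence 0 DHSs were called across the groups (52 with an unadjusted p under 0.05), 0 higher (13), 0 lower (0) and 0 promoters (2) by the exact permutation test. Fos -26.6 kb, open in all 6 Delta1-cultured libraries and no other, had exact adjusted p = 0.0632 across the groups in this setting. The Batf promoter, of the same pattern, had 0.182, so this setting could not call even that pattern.

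Leaving out each library in turn gave 9 to 41 called, 10 to 20 higher, 0 to 2 lower, 1 to 2 promoters and a median of 119 to 134 DHSs. Gained and lost were 22 to 53 and 5 to 11 for LSK to DN1, 4 to 14 and 24 to 52 for DN1 to DN2a, 29 to 69 and 0 to 8 for DN2a to DN2b, 33 to 77 and 4 to 9 for LSK to DN2b, 10 to 15 and 17 to 26 for LSK to IgG, 11 to 14 and 49 to 85 for DN1 to IgG, and 13 to 16 and 61 to 115 for DN2b to IgG. Of the 24 named distal DHSs called, 16 kept the call in the upper 50% of each list, 15 of 23 with a value at equal lengths, 24 with an overlap of 50 bp, 20 of 20 with a value at 4 or more libraries and none with presence or absence. Jun +43.9 kb had no value at equal lengths, nor had Fosl1 -2.9 kb, Fosl2 +2.8 kb, Batf3 +26.1 kb and Batf3 -24.5 kb at 4 or more libraries. The Atf3 promoter had a value with every transcript start alone, where 3 promoters were called.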
